A study of Rattus norvegicus with 2 samples.

Results

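The genes of collagens, laminins and integrins encode the matrix around muscle fibres and the receptors that bind it. They were chosen by symbol in the platform's probe annotation, updated by Entrez identifier: Col with a chain number, Lama, Lamb or Lamc with a number, and every symbol that begins with Itga or Itgb and goes on with a subunit digit or letter. The rule itself used no measured value, but it was proposed with earlier results of these data known. It gave 51 of the 13337 named genes, each with 1 probe, and the RefSeq gene table of assembly GRCr8 lists 85 protein-coding genes with such symbols, so the others were not analysed here. By role they were 9 fibrillar collagens, 11 basement membrane genes (type IV, XV and XVIII collagens and laminin chains), 10 other collagens, 17 integrin subunits and 4 genes whose symbols begin like an integrin subunit but whose products bind or resemble integrins.

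The samples were skeletal muscle of male Wistar rats aged 8 to 10 weeks with diabetes induced by streptozotocin (STZ), which destroys pancreatic beta cells. One sample was labelled EA, for electroacupuncture, and the other Mock. In EA, needles at the ST36 point of the lower leg (32 gauge, 1.27 cm) were left for 5 min and then carried a current of 10 mA at 15 Hz for 60 min. The labels give the Mock sample the same treatment text, and do not say what was done to the Mock animals; nor do they give the muscle, the interval before sampling, the STZ dose or the number of rats pooled. Each sample was read on 1 Illumina rat bead array. No difference below therefore has a replicate check, an error or a p-value, and the effect of EA and anything else that set the samples apart cannot be told apart.

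A gene's signal is the intensity of its probe as deposited, without background subtraction. Detection means a detection p under 0.01. The background level, taken as the median signal of probes with a detection p near 0.5, was 122 in EA muscle and 117 in Mock muscle. Differences are EA minus Mock on the log2 scale after background correction and quantile normalization. On the EA array 32.1% of probes were detected and on the Mock array 30.7%, and 5047 genes (37.8%) were detected on both, with a median difference of -0.06. The scatter between probes of the same gene is the only internal measure of error. Over 65 such pairs, the difference scattered with an SD of 0.25 per probe, the median gap within a pair was 0.21 and the widest was 0.82. It leaves out the variation between animals. The tissue label was checked against muscle fibre markers, and all 9 with a named probe, among them Acta1, Ckm and Pygm, were detected on both arrays. This does not show that the samples had the same fibre types. The myosin genes differed, with Myh7 at -3.60, Myh2 at -0.99 and Myh4 at 0.70.

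Fibrillar collagens assemble from triple helices into the fibres of the endomysium, perimysium and tendon, and fibroblasts make most of them. Basement membranes are sheets of type IV collagen and laminin networks that wrap each muscle fibre, capillary and nerve. Integrins are heterodimers of an alpha and a beta subunit that bind matrix outside the cell and the actin cytoskeleton inside it. In muscle fibres the alpha7 beta1 integrin and dystroglycan are the main laminin receptors.

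Of the 51 genes, 22 (43.1%) were detected on both arrays, 2 (3.92%) on the EA array only, none on the Mock array only and 27 on neither. Among all named genes, 3.09% were detected on the EA array only and 1.36% on the Mock array only. Of the 22, 6 (27.3%) were higher on the EA array by 2-fold or more, against 2.08% of the 5047 genes detected on both arrays, and none was at least 2-fold lower, against 0.456%. With the deposited values 4 of the 22 (18.2%) were past 2-fold, against 0.931% of all. At 1.5-fold, 11 were higher (background 6.26%) and none was lower (background 3.86%). The median of the 22 was 0.60, and 17 of them lay above 0, against 41.2% of all genes. The 6 genes past 2-fold were all the fibrillar collagens detected, Col1a1, Col3a1, Col5a2, Col5a1 and Col1a2, and the fibril-associated collagen Col14a1. Fewer or more cells of a type and less or more RNA per cell cannot be told apart in such bulk samples.

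**Figure D1:**
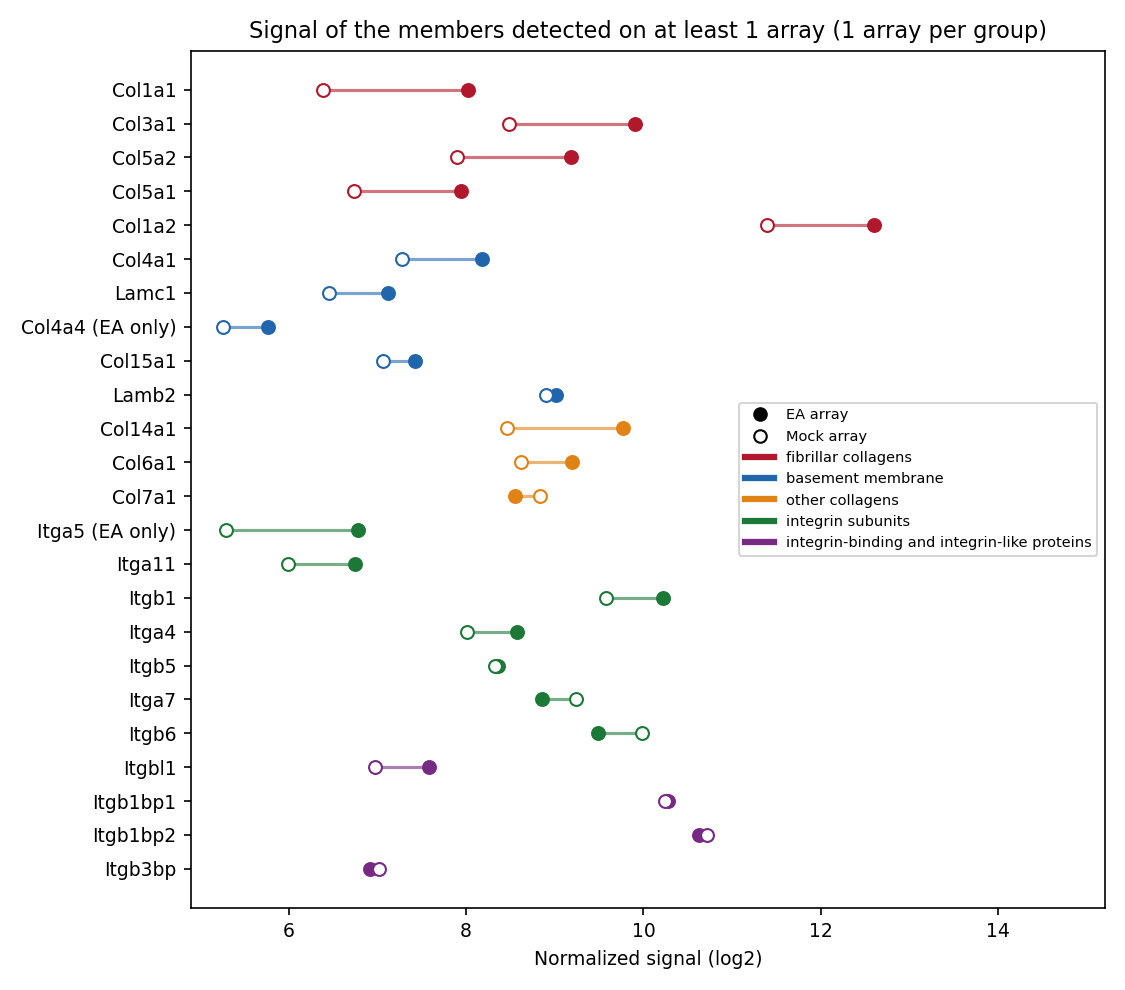
Normalized signal (log2, horizontal axis) of the 24 genes detected on at least 1 array, grouped by role, with a filled point for the EA array and an open point for the Mock array. The filled point lies right of the open one for all 5 fibrillar collagens, and left of it for Col7a1, Itga7, Itgb6, Itgb1bp2 and Itgb3bp.

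The fibrillar collagens had the highest median difference of the role groups, 1.28, with a range of 1.20 to 1.63 over 5 genes. Col1a1, the major chain of type I collagen, had a signal of 373 in EA muscle and 181 in Mock muscle. That was a difference of 1.63 (3.11-fold), rank 31 of 5047 from the top. Its partner chain Col1a2 had a signal of 6285 in EA muscle and 2771 in Mock muscle, a difference of 1.20 (2.30-fold). The common form of type I collagen holds both chains, and both probes were higher on the EA array by more than the widest gap between probes of the same gene. Because Col1a1 lay near the background on the Mock array, the size of its difference depends on the background correction. It was 0.95 without correction and 1.03 with the deposited values. The rank of Col1a1 holds for the main processing only. Without correction its difference was below those of Col3a1 (1.21) and Col1a2 (1.17). Col1a2, far above background, varied only from 1.01 to 1.21 over the processing settings.

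Col3a1, the chain of type III collagen, which is abundant in the endomysium, had a signal of 1076 in EA muscle and 447 in Mock muscle. The fold was 2.69 (log2 difference 1.43), and with the deposited values 2.17. Type V collagen nucleates fibrils and limits their diameter, and its Col5a1 chain had a signal of 359 in EA muscle and 202 in Mock muscle. Its Col5a2 chain had a signal of 701 in EA muscle and 337 in Mock muscle. The differences were 1.21 for Col5a1 and 1.28 for Col5a2, so the chains of types I, III and V lay together above 2-fold. With the deposited values Col5a1 (0.78) and Col5a2 (0.95) were below 2-fold, which left 3 of the 5 fibrillar collagens past it. Col3a1 and Col5a2 are next to each other on chromosome 9 of GRCr8. The other fibrillar members, Col2a1 and Col11a2 of cartilage, Col5a3 and Col27a1, were detected on neither array.

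Promoter windows of RefSeq (GRCr8, from 250 bases before to 50 after the annotated start) were matched for 41 of the 51 genes, and are shown for the matched genes past 2-fold, Col1a2, Col5a1 and Col5a2, and for Col4a1, the basement membrane gene with the highest difference. Col1a1, Col3a1 and Col14a1 are named only. Capitals mark matches, on either strand, to TATAAA (the TATA box), CCAAT (the CCAAT box), GGGCGG (a GC box), TGACTCA (an AP-1 motif) and GCGGGGGCG or GCGTGGGCG (Egr motifs). The GC box and the Egr motifs can overlap. The windows are chr4:33518307-33518606 on the plus strand for Col1a2, chr3:31606630-31606929 on the plus strand for Col5a1, chr9:55090102-55090401 on the minus strand for Col5a2 and chr16:84885347-84885646 on the plus strand for Col4a1, each written 5′ to 3′ along the gene.
Col1a2: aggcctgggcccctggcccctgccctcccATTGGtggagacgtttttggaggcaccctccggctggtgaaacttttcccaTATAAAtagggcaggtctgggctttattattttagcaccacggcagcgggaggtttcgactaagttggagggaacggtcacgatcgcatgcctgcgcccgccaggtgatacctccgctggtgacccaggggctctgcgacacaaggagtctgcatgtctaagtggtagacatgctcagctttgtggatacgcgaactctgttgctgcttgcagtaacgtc
Col5a1: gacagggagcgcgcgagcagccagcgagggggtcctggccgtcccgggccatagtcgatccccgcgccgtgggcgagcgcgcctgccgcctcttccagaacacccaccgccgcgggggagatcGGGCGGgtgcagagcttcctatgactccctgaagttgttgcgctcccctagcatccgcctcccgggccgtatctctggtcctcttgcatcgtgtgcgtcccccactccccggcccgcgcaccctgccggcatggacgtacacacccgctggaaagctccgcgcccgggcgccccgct
Col5a2: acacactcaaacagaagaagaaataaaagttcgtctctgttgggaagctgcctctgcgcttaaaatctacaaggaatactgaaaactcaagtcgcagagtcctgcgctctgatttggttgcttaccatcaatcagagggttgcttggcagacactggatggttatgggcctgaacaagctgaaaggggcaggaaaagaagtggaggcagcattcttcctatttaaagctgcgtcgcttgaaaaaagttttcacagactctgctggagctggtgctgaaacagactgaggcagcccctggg
Col4a1: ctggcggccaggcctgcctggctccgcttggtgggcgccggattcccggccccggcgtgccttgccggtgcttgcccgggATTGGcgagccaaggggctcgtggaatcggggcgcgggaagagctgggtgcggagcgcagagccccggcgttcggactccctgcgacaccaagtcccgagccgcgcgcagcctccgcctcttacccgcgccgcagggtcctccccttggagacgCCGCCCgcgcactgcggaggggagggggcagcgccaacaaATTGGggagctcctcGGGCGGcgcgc
The annotated start was taken as given and was not checked to be a transcription start. In the Col1a2 window the bases after it begin with atg, as a coding sequence does. In the Col5a1 window atg follows it closely. The distances given here need not be those from a transcription start. The Col1a2 window held a TATA box that began 170 bases before the annotated start and an inverted CCAAT box 221 bases before it. The Col5a1 window held a GC box, 127 bases before the start, and the Col5a2 window held none of the motifs searched. Of the 41 windows, 21 (51.2%) held a GC box, against 33.1% of all 33469 windows in the table, and 10 (24.4%) a CCAAT box, against 37.5%. The TATA box was in 4 (9.76%), against 14.2% of all windows. The AP-1 motif was in 1 window, that of Col6a1, against 4.63% of all, and GCGGGGGCG in 4, those of Col11a2, Col5a3, Itgb1 and Itgb5, against 2.73% of all. GCGTGGGCG was in the Itgb8 window only, against 0.544% of all. Col1a2, Col5a1 and Col5a2, the matched genes past 2-fold, did not hold the AP-1 or Egr letters in this window. The window may leave out part or all of their promoters, so no absence from a promoter can be read from it.

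Among the basement membrane genes, the 4 detected on both arrays were all higher on the EA array, and none reached 2-fold. Other basement membrane chains, among them Lama2, Lama4, Lama5, Lamb1 and Col4a2, had no named probe and were not measured. Their median was 0.52, and the highest of them lay below the lowest fibrillar collagen. Col4a1, a chain of the ubiquitous type IV network, had a signal of 404 in EA muscle and 251 in Mock muscle, a difference of 0.90 (1.86-fold). Col15a1, a collagen that links basement membranes to the fibrils beneath, had a signal of 288 in EA muscle and 228 in Mock muscle, a difference of 0.37.

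Laminins are trimers of an alpha, a beta and a gamma chain. Lamc1, the gamma chain of most laminins, had a signal of 253 in EA muscle and 184 in Mock muscle. Its difference of 0.66 varied from 0.34 without background correction to 0.83 with the arrays scaled to the 75th percentile of detected probes. Lamb2, the beta chain of laminins at the neuromuscular junction, had a signal of 639 in EA muscle and 569.9 in Mock muscle. Its difference of 0.11 was smaller than the SD between probes of the same gene. Lama1, Lamb3 and Lamc3 were detected on neither array, and so were Col4a3, Col4a5 and Col18a1. Col4a4 was detected on the EA array only, with a signal of 165 there and 136 on the Mock array, and gave no lower bound above 1-fold.

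The other collagens differed among themselves more than the fibrillar ones. Col14a1, which sits on the surface of type I fibrils, had a signal of 988 in EA muscle and 444 in Mock muscle, a difference of 1.30 (2.47-fold) inside the range of the fibrillar chains. With the deposited values it was 1.02. Col6a1, a chain of the beaded microfibrils that tie the fibre's basement membrane to the surrounding matrix, had a signal of 708 in EA muscle and 482 in Mock muscle, a difference of 0.58. Col7a1, the collagen of anchoring fibrils in skin, was lower on the EA array, with a signal of 496 there and 548 on the Mock array (-0.28). The remaining 7, Col6a2, Col6a4, Col8a1, Col9a2, Col13a1, Col17a1 and Col23a1, were detected on neither.

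**Figure D2:**
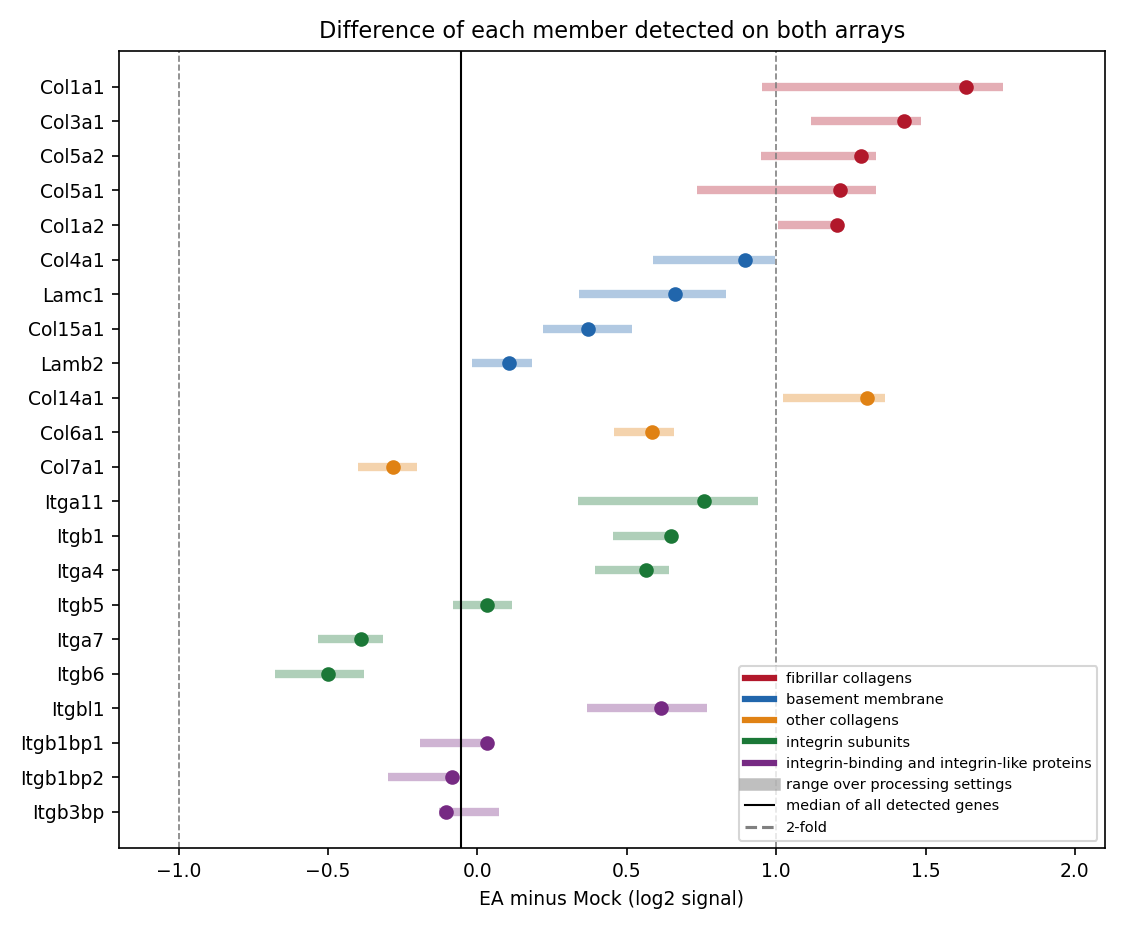
Difference between the arrays (EA minus Mock, log2, horizontal axis) of the 22 genes detected on both. Points are the values reported, bars the range over the ways of background correction and normalization and the deposited values, and the black line the median of all detected genes (-0.06). The bars of Col3a1, Col1a2 and Col14a1 stay above the dashed 2-fold line, and those of Itga7, Itgb6, Col7a1 and Itgb1bp2 stay below 0.

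The receptors went in both directions. Of 17 integrin subunits, 6 were detected on both arrays, with 4 above and 2 below 0, none past 2-fold, and a median of 0.30. Itgb1, the beta subunit shared by most matrix receptors, had a signal of 1297 in EA muscle and 856 in Mock muscle, a difference of 0.65 (1.57-fold). Itga11, which pairs with beta1 into a fibrillar collagen receptor of fibroblasts, had a signal of 222 in EA muscle and 162 in Mock muscle. Its difference of 0.76 came from a Mock signal just inside the detection limit and was 0.34 without background correction. The other collagen-binding alpha subunits, Itga1, Itga2 and Itga10, were detected on neither array.

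Itga4, which with beta1 binds fibronectin and the vascular adhesion molecule VCAM-1, had a signal of 500.5 in EA muscle and 353 in Mock muscle (0.56). Itga5, the alpha subunit of the main fibronectin receptor, was detected on the EA array only, with a signal of 225 there and 137 on the Mock array. Its lower bound against the Mock detection limit was 1.999-fold, and only 0.43 on the log2 scale without background correction. Fn1, fibronectin itself, was 3.02-fold higher in EA muscle (1.59).

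Itga7, the laminin-binding alpha subunit of muscle fibres, lay the other way, with a signal of 582 in EA muscle and 698 in Mock muscle (-0.39). Itgb6, which pairs with alphav and can activate latent TGF-beta, had a signal of 833 in EA muscle and 1109 in Mock muscle. At -0.50 it was the lowest of the 22 genes, at rank 338 of 5047 from the bottom. Itgb5, another partner of alphav, had a signal of 444 in EA muscle and 412 in Mock muscle, a difference of 0.03. The leukocyte integrin subunits Itgal, Itgam and Itgad were detected on neither array, as were Itga8, Itgb4, Itgb7 and Itgb8. Other integrin subunits, among them Itgav, Itga6, Itgax, Itgb2 and Itgb3, had no named probe and were not measured.

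The 4 genes with integrin-like symbols had a median of -0.03. Itgb1bp2 (melusin), a muscle protein that binds the beta1 tail, had a signal of 1693 in EA muscle and 1796 in Mock muscle (-0.08). Itgb1bp1, which also binds the beta1 tail and competes with talin, had a signal of 1338 in EA muscle and 1323 in Mock muscle (0.03). Itgb3bp, better known as a centromere protein, had a signal of 236 in EA muscle and 224 in Mock muscle, and the background correction and normalization turned that into a difference of -0.10. Itgbl1, a secreted protein with integrin-like repeats, was the highest of them, with a signal of 308 in EA muscle and 219.7 in Mock muscle (0.62).

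Of the 22 differences, 17 (77.3%) were larger in size than the SD of 0.25 between probes of the same gene, against 41.5% of the 5047 genes detected on both arrays. Larger than the widest gap between such probes were 7 (31.8%), the 6 past 2-fold and Col4a1, against 4.24% of those genes. The 27 genes detected on neither array had signals from 96.6 to 158. Their differences ran from -0.46 to 0.64 with a median of 0.01, and 15 lay above 0.

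**Figure D3:**
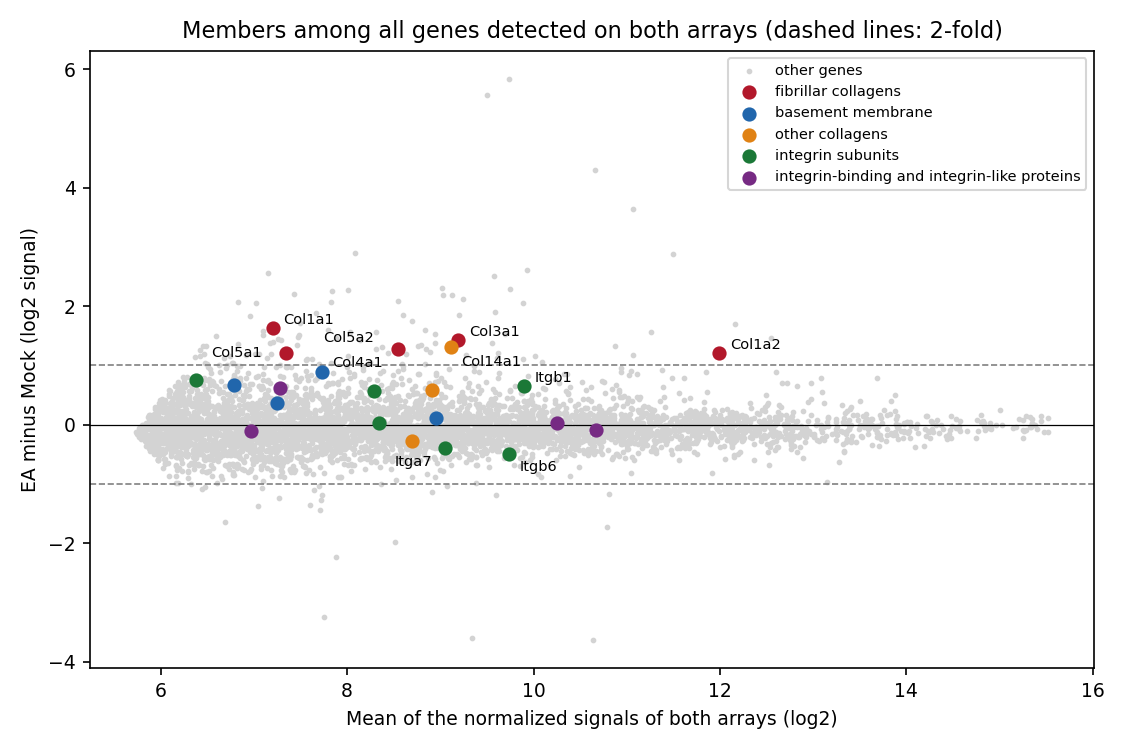
Difference between the arrays (EA minus Mock, log2) against the mean normalized signal of both arrays (log2) for all 5047 genes detected on both, with the 22 genes of the family coloured by role. The fibrillar collagens lie above the dashed 2-fold line both near the low end of signal (Col1a1, Col5a1) and at the high end (Col1a2).

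The genes of collagen biosynthesis and cross-linking differed less than the fibrillar collagens. Of the 14 detected on both arrays, none was past 2-fold, and the median was 0.13. Above 0 lay 11 of them, against 41.2% of all genes detected on both arrays. At 1.5-fold, 4 were higher (background 6.26%) and none was lower (background 3.86%). The highest was Loxl1, a cross-linking lysyl oxidase-like enzyme, at 0.78, and lysyl oxidase itself, Lox, was at 0.72. The lowest was Plod2, a lysyl hydroxylase, at -0.56. Pcolce, which enhances the removal of the procollagen C-propeptide, was detected on the EA array only with a lower bound of 2.15-fold after background correction and 1.40-fold without it. Its signal was 234 in EA muscle and 149 in Mock muscle. Serpinh1, the collagen chaperone, was detected on neither array.

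Genes that cut matrix, or inhibit its cutting, lay higher. Of 8 detected on both arrays, all lay above 0, against 41.2% of all genes detected on both. Of the 8, 5 were past 2-fold, against 2.08% of all, and the median was 1.12. Those 5 were Plau (1.84) and Plat (1.46), the plasminogen activators, Adamts1 (1.27), a proteoglycan-cutting protease, Timp1 (1.13), an inhibitor of metalloproteinases, and Ctsk (1.11), a collagen-cutting cathepsin. With the deposited values only 1 of the 8, Plau, was past 2-fold, against 0.931% of all genes. The lowest was Reck, a membrane inhibitor of metalloproteinases, at 0.28. The metalloproteinase genes Mmp2, Mmp3, Mmp9 and Mmp13 were detected on neither array, and Mmp14 was at 0.77.

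The list of other basement membrane and laminin-binding genes had a median of 0.26 over 9 genes, none past 2-fold. It ran from Dmd, dystrophin, at -0.27 to Tinagl1, a matrix protein of basement membranes, at 0.96. Dmd had a signal of 212 on both arrays, so its difference came from the background correction and normalization. Dag1, dystroglycan, was at -0.19. The integrin adhesion machinery had a median of 0.01 over 11 genes, none past 2-fold, from Vasp, an actin regulator, at -0.53 to Flna, the actin cross-linker that binds integrin tails, at 0.83. TGF-beta signalling had a median of 0.16 over 13 genes, with 1 past 2-fold (background 2.08%). That was Ccn1, a matrix-associated protein, at 1.38, while Ccn2, a related gene, was at 0.92 and Smad7, an inhibitor of the pathway, was lowest at -0.78.

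**Figure D4:**
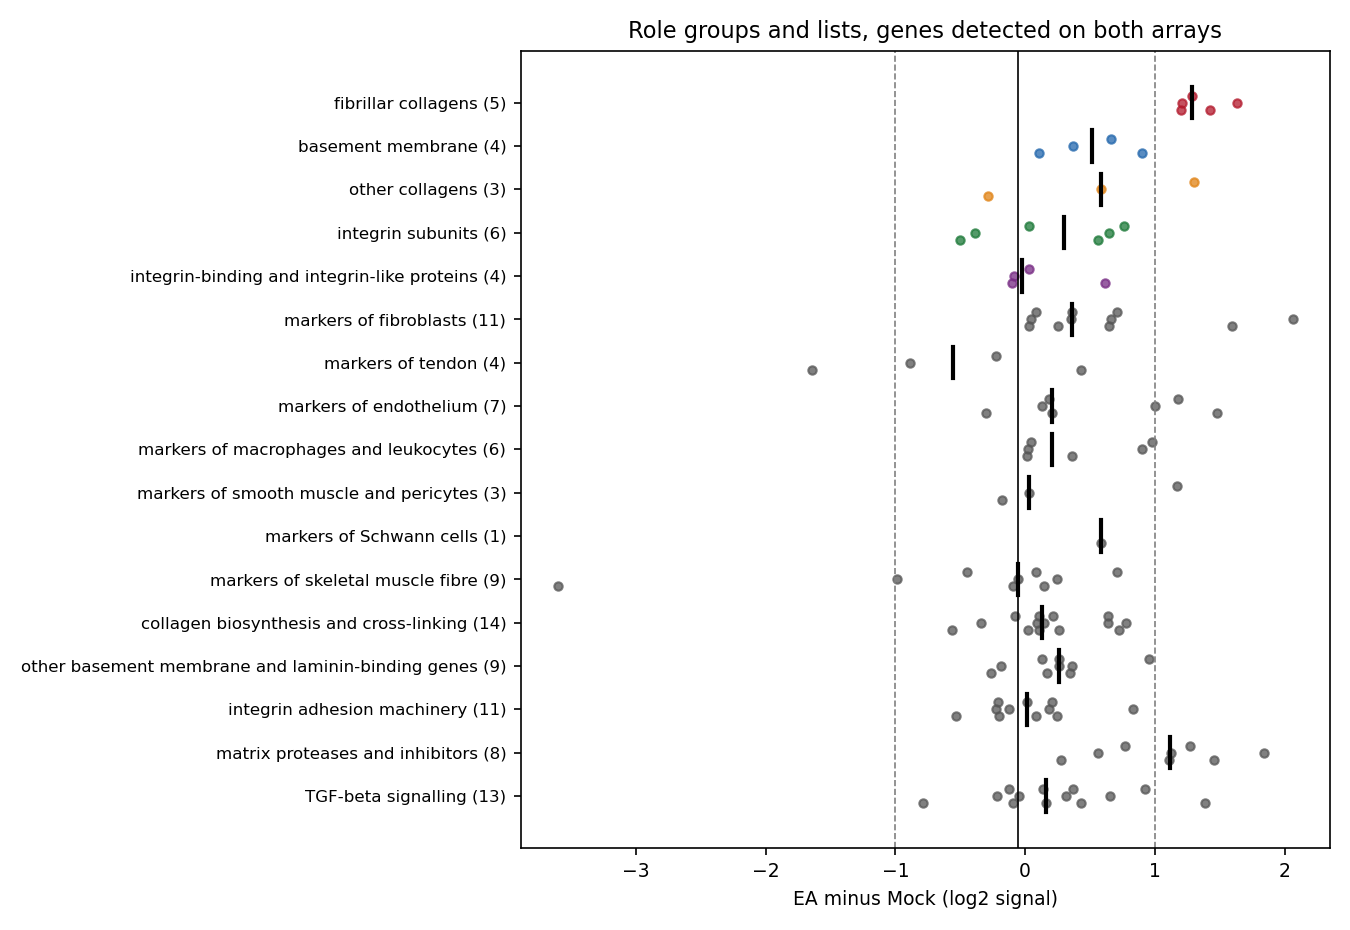
Differences (EA minus Mock, log2, horizontal axis) of the genes detected on both arrays, 1 point per gene, for the 5 role groups in colour and the other lists in grey, with the number of genes in brackets. Short bars are medians, the long black line the median of all detected genes and the dashed lines 2-fold. The fibrillar collagens (median 1.28) and the matrix proteases and inhibitors (1.12) are the groups with a median past 2-fold.

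Markers of cells other than muscle fibres differed between the arrays by type. Among all genes detected on both arrays, 41.2% lay above 0 and 2.08% were at least 2-fold higher, or 0.931% with the deposited values. Of 12 fibroblast markers with a named probe, 11 were detected on both arrays, all above 0, with a median of 0.36 and a summed normalized signal of 16490.3 in EA muscle and 11034 in Mock muscle. Postn (2.06) and Fn1 (1.59) were past 2-fold. Dcn (0.65), Pdgfra (0.35), Lum (0.08) and S100a4, the lowest at 0.03, were not. Dcn, with a signal of 9309 in EA muscle and 5969 in Mock muscle, made up most of both summed signals. Thy1 was not detected. Of 9 endothelial markers, 7 were detected on both arrays, with a median of 0.21 and a summed signal of 2193 in EA muscle and 1302 in Mock muscle. Sox17 (1.48), Cldn5 (1.17) and Esam (1.00) were past 2-fold, and none was with the deposited values (0.96, 0.92 and 0.64 for the same genes). Egfl7 was lowest at -0.30, and Cdh5 and Tek were not detected. The signal of Egfl7 was 176 on both arrays, so its difference came from the background correction and normalization.

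Of 10 macrophage and leukocyte markers, 6 were detected on both arrays, with a summed signal of 2025 in EA muscle and 1472 in Mock muscle and a range from C1qa at 0.01 to C1qc at 0.98. Ptprc and Cd163 were not detected. Tendon markers lay the other way, with 4 of 5 detected on both arrays and a summed signal of 1611 in EA muscle and 2061 in Mock muscle. Tnmd, a tendon membrane protein, was at -1.64, Fmod, a fibril-binding proteoglycan, at -0.89, Thbs4 at -0.22, and Cilp was highest at 0.43. Of 6 smooth muscle and pericyte markers, 3 were detected on both arrays, and the summed signal of 42500.2 in EA muscle and 41584 in Mock muscle was nearly all Des, which muscle fibres also express. Tagln was past 2-fold at 1.17 but not with the deposited values, at 0.73, and Cspg4 was lowest at -0.18. Of 5 Schwann cell markers, Pmp22 (0.59) was detected on both arrays and the other 4, among them Mbp and Sox10, on neither. The 9 muscle fibre markers had a median of -0.05, from Myh7, the slow myosin, at -3.60 to Myh4, the fastest, at 0.70, and a summed signal of 204769 in EA muscle and 197586 in Mock muscle. The part of these markers in the collagen differences was not tested.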

How the data were processed

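Biotinylated cRNA of total RNA from 2 rat skeletal muscle samples, EA and Mock, was hybridised to Illumina rat bead arrays, per the labels' protocols. The deposited non-normalized table holds each probe's intensity and, per the file headers, its detection p-value, for 22523 probes. The software behind it was not given in the sources used here. The authors' deposited series table of intensity values ranks the probes identically on each array. Its scale was taken as linear from the size of the values (medians 137.5 for EA and 137.3 for Mock), its centring and normalization are unknown, and it served as an alternative.

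limma's nec function corrected the background by way of the detection p-values, with an offset of 16, before quantile normalization and log2 (R 4.3.3, limma 3.58.1, Python 3.11.15). The step was also run on data with known folds, simulated from the Mock array. Both simulated arrays had the same background, so the run could not show the effect of unequal backgrounds. Genes were named from the platform annotation for 13793 probes, all with 1 symbol, while 8730 had none. Of the named probes, 13752 matched RefSeq (GRCr8) by gene identifier and 5 by accession, and 36 kept their symbol. For the 425 genes with several probes the brightest was used. A gene detected on 1 array got a lower bound, its signal there over either the dim probe's signal or the lowest detected signal of the other array, whichever was higher. The precision is limited by the number of arrays.

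The members, role groups and lists were chosen with earlier results of these data known. All members detected on at least 1 array are named with values, and from the other lists the genes past 2-fold, the highest and the lowest. Further genes of those lists were named after their values were seen. They are Acta1, Ckm, Pygm, Lox, Serpinh1, Mmp14, Dag1, Ccn2, Dcn, Pdgfra, Lum, Fmod, Thbs4, Des, Myh2 and undetected metalloproteinases and cell type markers. Alternatives were no background correction, an offset of 50, scaling to the 75th percentile, the deposited values, a detection p under 0.05, no detection filter and the mean over probes. No test was made, since each group had 1 array.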

Additional observations from a re-analysis of the deposited data

How the results depend on the processing

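No paired analysis was possible because each group had 1 array. Of the 22 genes detected on both arrays, 18 kept the sign of their difference under every setting run, and the exceptions were Lamb2, Itgb5, Itgb1bp1 and Itgb3bp. Without background correction, 3 genes were at least 2-fold higher (Col3a1, Col1a2 and Col14a1), with Col5a2 at 0.998, and 7 at least 1.5-fold. The deposited values left 4 genes past 2-fold, where 0.931% of all genes were, and 7 past 1.5-fold. The median of the fibrillar collagens was 1.01 with the deposited values and 0.998 without background correction. An offset of 50 left 5 genes past 2-fold, with Col5a1 at 0.999. Scaling to the 75th percentile of all probes moved the median of all genes to -0.19 and put 1 gene, Itgb6 at -0.68, at least 1.5-fold lower, and all 6 genes stayed past 2-fold. Scaling to the 75th percentile of the probes detected on both arrays, chosen after seeing the data, moved the median of all genes to 0.01 and kept the same 6 genes. At a detection p under 0.05, 6 genes were detected on the EA array only and 1, Itgb7, on the Mock array only. With no detection filter the median of the other collagens was 0.022, since genes at background entered. The mean over probes changed nothing, as every member had 1 probe. The Mock signals of Col1a1, Col5a1, Lamc1, Itga5 and Itga11 lay near background, which limits the size of their differences.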

Other observations

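Chains of the same heterotrimer were not measured alike. Col6a1 was detected on both arrays, with a signal of 708 in EA muscle and 482 in Mock muscle, but Col6a2, its partner chain in type VI collagen, was at background, with 126 in EA muscle and 128 in Mock muscle. No level of Col6a2 can be read from that probe.

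Itgb6 and Col7a1, best known from epithelia and skin, were detected on both muscle arrays, and both were lower on the EA array. Some subunits detected on neither array had a detection p under 0.05 on 1 of them. Itga1, a collagen receptor subunit, had a signal of 158 in EA muscle and 125 in Mock muscle. Its detection p was 0.0133 on the EA array, and that of Itgb4 was 0.0170. Itgb7, a leukocyte subunit, had a signal of 139 in EA muscle and 147 in Mock muscle. Its detection p was 0.0255 on the Mock array.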
